A study of Rattus norvegicus with 16 samples.

Results

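Chemokines are small secreted or membrane-bound proteins that direct the movement of cells, and the genes described here are the chemokines and chemokine receptors in the count table of a rat kidney co-culture experiment. Genes were taken by symbol, namely Cxcl, Ccl, Cxcr or Ackr followed by a number, Ccr followed by a number alone, Cx3cl1 and Xcl1. This gave 52 of the 32623 genes in the table, of which 34 were ligands, 15 signalling receptors and 3 atypical receptors. NRK-52E, an epithelial line derived from the proximal tubule of normal rat kidney, was grown on filter inserts that hung above NRK-49F, a fibroblast line from normal rat kidney, so that both lines shared the medium without touching. After 24 h without serum the co-cultures received medium of pH 7.4 (control) or pH 6.0 (acidosis) for 48 h, and the lines were then harvested apart. Polyadenylated RNA was sequenced in 16 libraries, 4 each of NRK-52E at pH 7.4, NRK-52E at pH 6.0, NRK-49F at pH 7.4 and NRK-49F at pH 6.0, and the labels write the pH as a whole number. The labels do not say whether the 4 libraries of a group came from separate cultures, so p-values measure the spread between these libraries, which may be technical. A library held between 16201084 and 34784862 counted fragments, and 1 count was worth between 0.0313 and 0.0663 FPM (fragments per 10⁶ counted, scaled with TMM factors over the 16 libraries).

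Ligands of the CXC and CC families bind G protein-coupled receptors on leukocytes and other cells and form gradients on heparan sulfate at cell surfaces. Atypical receptors bind the same ligands without G protein signalling and take them up, which lowers or shapes the gradient. In the kidney, tubule cells and interstitial fibroblasts are known sources of ligands that recruit monocytes, neutrophils and lymphocytes during injury.

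Of the 52 genes, 42 had at least 1 count and 10 had none in any of the 16 libraries. The genes without counts included the ligands Ccl1, Ccl3, Ccl12, Ccl21 and Ccl26, the signalling receptors Ccr6, Ccr8 and Cxcr4, and the atypical receptor Ackr2. A count of 0 allows up to 3 counts in a library, which was on average 0.133 FPM in NRK-52E at pH 7.4 and 0.146 FPM at pH 6.0, and 0.1598 and 0.131 FPM in NRK-49F. These limits, and the bounds on fold changes that follow from them, cover counting error only. A mean of at least 1 FPM in at least 1 group was reached by 16 genes, made up of 13 ligands, the receptor Ccr10 and the atypical receptors Ackr3 and Ackr4. Cxcl14 lay just under that level, with a highest group mean of 0.967 FPM.

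FPM of the ligands and of the receptors were summed in each library, with no test of the sums. Summed ligand FPM was 101 ± 8.36 (SD, n = 4) in NRK-52E at pH 7.4 and 171 ± 12.7 at pH 6.0, and in NRK-49F it was 831 ± 79.8 and 309 ± 57.5. Summed receptor FPM was 256 ± 12.2 and 47.7 ± 18.3 in NRK-52E, and 124 ± 7.19 and 78.5 ± 17.6 in NRK-49F. These sums rest on few genes, since Cxcl16 alone was at 79.2 ± 6.96 and 136 ± 7.75 FPM in NRK-52E, and the atypical receptors Ackr3 and Ackr4 made up nearly all of the receptor sum. In bulk RNA, fewer cells that express a gene and less RNA per cell cannot be told apart.

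**Figure D1:**
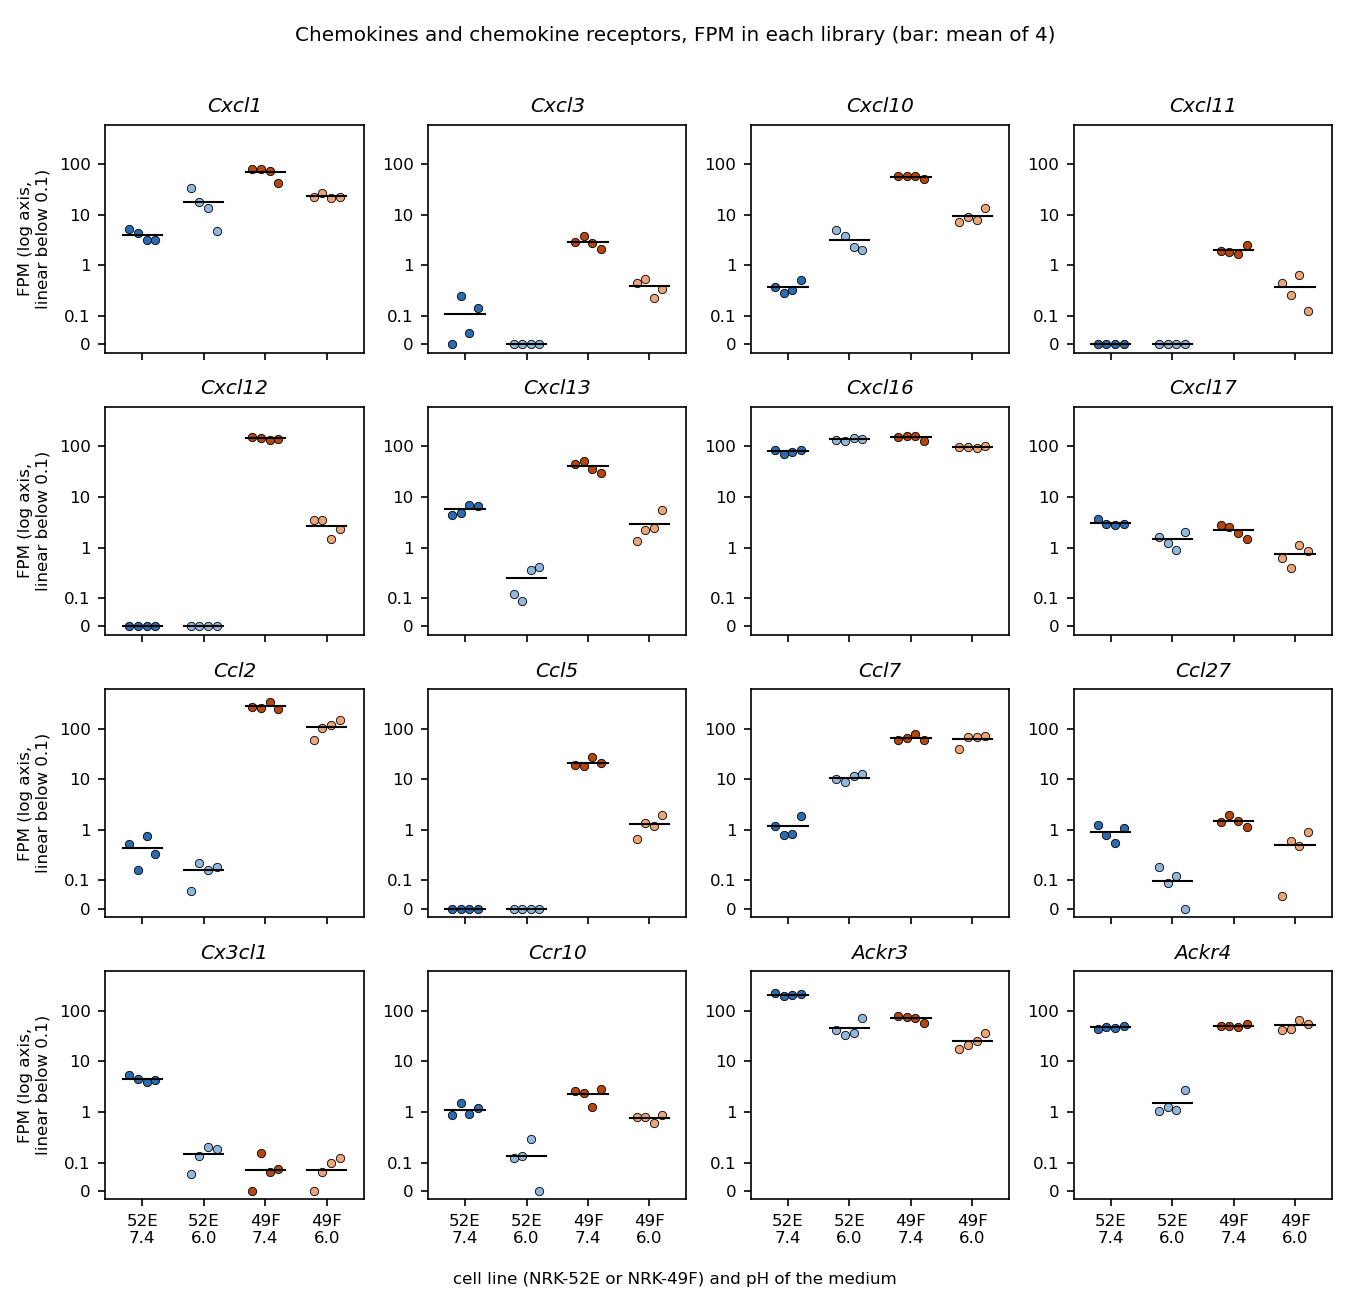
FPM of the 16 genes with a mean of at least 1 FPM in at least 1 group. Each point is a library, each bar the mean of 4 libraries, and the vertical axis is logarithmic above 0.1 FPM and linear below. Cxcl12, Ccl5 and Cxcl11 lie at 0 in all 8 NRK-52E libraries, and Ackr4 lies between 1.04 and 2.73 FPM in NRK-52E at pH 6.0 while the other 3 groups lie between 41.8 and 66.8 FPM.

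The labelled cell types were checked against marker genes. Of 12 epithelial markers, 5 reached 1 FPM in NRK-52E at pH 7.4 and 2 in NRK-49F, and Esrp1 was at 0 counts in all 16 libraries. The occludin gene Ocln was at 41.2 ± 2.04 FPM in NRK-52E at pH 7.4 and at 0 counts in NRK-49F at the same pH, whereas the keratin gene Krt8, the epithelial marker with the highest FPM, was at 430.4 ± 32.03 FPM in NRK-52E and at 848 ± 70.4 FPM in NRK-49F. The proximal tubule markers Slc34a1 and Hnf4a were at 0 counts in the 8 NRK-52E libraries, and Aqp1, with the highest FPM of the 9, was at 34.4 ± 7.64 FPM at pH 7.4. The fibroblast marker Pdgfra was at 0.286 ± 0.110 FPM in NRK-52E and 392 ± 54.7 FPM in NRK-49F at pH 7.4, whereas Col3a1 was at 6221 ± 95.00 FPM in NRK-52E and 458 ± 103 FPM in NRK-49F, and Thy1 was at 0 counts throughout. Of 9 fibroblast markers tested between the lines at pH 7.4, 7 were higher in NRK-49F and 1, Col3a1, was lower (median log2 fold change 3.30). Of 5 epithelial markers tested, 1, Krt8, was higher in NRK-49F and 3 were lower (median -6.51). Among all genes, 33.3% were higher and 33.3% lower. The summed proximal tubule list was higher in the fibroblast line, at 138 ± 17.2 and 457 ± 102 FPM in NRK-49F at pH 7.4 and 6.0 against 38.2 ± 7.86 and 30.8 ± 4.45 FPM in NRK-52E, with Ggt1 at the highest FPM in NRK-49F (112 ± 19.8 and 413 ± 84.8 FPM). Of 4 members of this list tested between the lines at pH 7.4, 2 were higher in NRK-49F (Ggt1 and Cubn) and 1 was lower (Aqp1). Slc34a1 and Hnf4a had low counts in NRK-49F.

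Markers also moved with pH. In NRK-52E, acidosis lowered all 5 epithelial markers tested (median log2 fold change -1.63), among them Cdh1, Ocln and Krt19, and 6 of the 7 fibroblast markers tested (median -1.53), beside 28.5% of all genes lowered and a median of 0.0014. In NRK-49F it lowered 5 of 8 fibroblast markers (median -1.02) and 1 of 2 epithelial markers, Krt8, beside 19.4% of all genes. The part of these shifts in the chemokine results was not tested. The study's methods, which rinsed and inspected the filters, leave only a very small chance that fibroblasts stuck to them, and call an effect on the results unlikely. Cxcl12, Ccl5 and Cxcl11 were at 0 counts in all 8 NRK-52E libraries. In NRK-49F their means were 143, 21.3 and 1.99 FPM at pH 7.4, but only 2.69, 1.30 and 0.371 FPM at pH 6.0. Carry-over between the lines was not tested.

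Leukocytes, which carry most chemokine receptors, were represented by 12 markers, of which Ptprc, Adgre1 and Tyrobp were at 0 counts in all 16 libraries. The summed FPM of this list was between 4.06 and 4.87 in NRK-52E at pH 7.4 and between 7.22 and 10.01 at pH 6.0, with Cd68 and Lyz2 at the highest FPM. In NRK-49F the sum was between 64.4 and 101 at pH 7.4 and between 225 and 263 at pH 6.0, nearly all of it from the lysosomal gene Cd68. Of 5 endothelial markers in the table, Tek was highest in NRK-52E, with 41.1 ± 4.14 FPM in the control and 7.02 ± 0.971 under acidosis, and Kdr and Emcn were at 0 counts. The part of these leukocyte and endothelial shifts was not tested either.

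A gene counted as differentially expressed (DEG) when edgeR and DESeq2 both put its FDR, the p-value adjusted over all genes tested, below 0.01 with the same sign. In NRK-52E cells, acidosis led to higher expression of 4 ligands (Cxcl1, Cxcl10, Cxcl16 and Ccl7) and to lower expression of 4 ligands (Cxcl13, Cxcl17, Ccl27 and Cx3cl1) and 3 receptors (Ccr10, Ackr3 and Ackr4). These 11 DEGs came from 12 members that passed the filter on low counts, beside 56.7% of all 13735 genes tested. Higher expression was found in 4 members, against 28.2% of all genes, and lower expression in 7, against 28.5%. The median log2 fold change was -1.65 over the 12 members and 0.0014 over all genes. With libraries scaled by their totals alone, 37.6% of all DEGs were higher in place of 49.7%, and the members kept their split of 4 and 7. Cxcl14 was tested and was not a DEG.

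In NRK-49F cells, acidosis lowered 12 of the 15 members tested, beside 37.8% DEGs among all 13339 genes. The 12 were the ligands Cxcl1, Cxcl3, Cxcl10, Cxcl11, Cxcl12, Cxcl13, Cxcl16, Cxcl17, Ccl2 and Ccl5 and the receptors Ccr10 and Ackr3, against 19.4% of all genes with lower expression. No member was higher in edgeR or in DESeq2, against 18.4% of all genes. At an unadjusted p below 0.05 edgeR had 0 members higher and 13 lower, beside 7813 of all 13339 genes in either direction. The median log2 fold change was -1.58 over the 15 members and -0.0029 over all genes. Ccl7, Ccl27 and Ackr4 were tested and were not DEGs.

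Between the cell lines at pH 7.4, 13 of 17 members tested differed, beside 66.6% of 14026 genes. NRK-49F had more RNA of 10 ligands (Cxcl1, Cxcl3, Cxcl10, Cxcl11, Cxcl12, Cxcl13, Cxcl16, Ccl2, Ccl5 and Ccl7), against 33.3% of all genes, and less of Cxcl14, Cx3cl1 and Ackr3, against 33.3% of all genes. With library totals in place of TMM, 34.3% of all DEGs of this comparison were higher in place of 50.0%, and 10 members were higher and 5 lower. At pH 6.0, 9 of 12 members differed, beside 59.8% of 13796 genes. NRK-49F then had more of Cxcl10, Cxcl12, Cxcl13, Ccl2, Ccl5, Ccl7, Ccr10 and Ackr4, 8 members against 31.3% of all genes, and less of Cxcl16, 1 member of the 12 that passed the filter against 28.6% (Cxcl14, with 0 counts in NRK-49F, did not pass it). The median log2 fold change of the members was 2.72 at pH 7.4 and 2.49 at pH 6.0, also with members at 0 in 1 line put at their bound, and -0.029 and 0.027 over all genes.

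Whether the lines differed in their pH effect was itself tested, as the effect in NRK-49F minus that in NRK-52E. It passed the same thresholds for 6 of 17 members that entered the test, 13 of which had an estimate, beside 36.9% of 14679 genes. The difference was positive for Ackr4 and Cx3cl1, 2 members against 17.5% of all genes, and negative for Cxcl1, Cxcl10, Cxcl16 and Ccl7, 4 members against 19.3%. Cx3cl1 was too low in NRK-49F for a test of acidosis there, so its difference only restates the fall in NRK-52E. With library totals, 66.2% of all DEGs of this comparison were positive in place of 47.6%, and the members kept their split of 2 and 4. For Cxcl11, Cxcl12, Cxcl14 and Ccl5 the difference could not be estimated, because 1 line had no counts. A member that passes the filter through its high group alone has to differ, and each group of libraries enters several comparisons, so these counts are descriptions that share data.

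**Figure D2:**
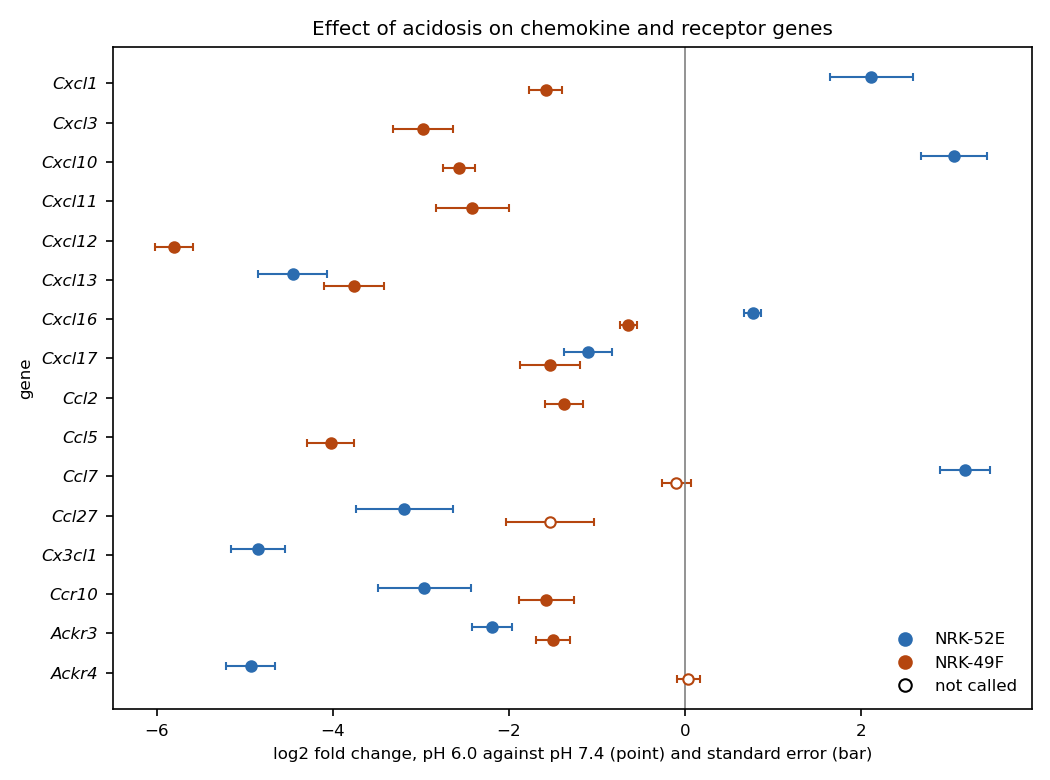
Log2 fold change at pH 6.0 against pH 7.4 with its standard error (bar), in NRK-52E and NRK-49F, for the genes tested in each line. Open points are genes that were not DEGs. Cxcl1, Cxcl10 and Cxcl16 lie to the right of 0 in NRK-52E and to the left in NRK-49F, and Ackr4 lies at -4.93 in NRK-52E and 0.035 in NRK-49F.

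Among the CXC ligands, Cxcl12 attracts cells that carry Cxcr4 and also binds Ackr3, and it was counted in the fibroblast line alone. In NRK-49F, Cxcl12 was at 152, 149, 134 and 139 FPM at pH 7.4 and at 3.50, 3.45, 1.46 and 2.35 FPM at pH 6.0. The 4 acidotic libraries were all far below the 4 controls, and the 8 NRK-52E libraries held 0 counts. Cxcl12 fell 55.8-fold in NRK-49F (log2 fold change -5.80 ± 0.22 SE, edgeR FDR = 1.26e-08). Against the floor of 3 counts per library, NRK-49F had at least 1081-fold more Cxcl12 than NRK-52E at pH 7.4 and at least 18.5-fold more at pH 6.0. Its signalling receptor Cxcr4 was at 0 counts in both lines.

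Cxcl1 and Cxcl3 attract neutrophils through Cxcr2. In NRK-52E, Cxcl1 was at 5.25, 4.38, 3.23 and 3.24 FPM at pH 7.4 and at 34.4, 18.2, 13.6 and 4.80 FPM at pH 6.0. The fibroblast libraries held 81.7, 80.6, 74.3 and 42.6 FPM at pH 7.4 and 22.8, 27.5, 21.7 and 22.3 FPM at pH 6.0. The epithelial groups overlapped, since library N8 at pH 6.0 lay below library N1 at pH 7.4, whereas the fibroblast groups were apart and moved the other way. Cxcl1 rose 4.34-fold in NRK-52E (log2 fold change 2.12 ± 0.47 SE, edgeR FDR = 0.00226) and fell 2.995-fold in NRK-49F (-1.58 ± 0.19, FDR = 2.77e-05). The difference between these effects was -3.68 ± 0.53 SE on the log2 scale (edgeR FDR = 1.96e-05), and -3.03 without library N3. The lines thus differed 16.4-fold at pH 7.4, while at pH 6.0 their Cxcl1 levels overlapped and the log2 difference of 0.43 ± 0.41 SE did not pass the thresholds. That value was 0.96 without library N3, 0.11 without N8 and -0.25 with the second number of the library names as a covariate. Second number 21 is the only one found in both lines. Here and below, a difference between the lines with this covariate therefore compares the libraries of number 21 alone. At pH 6.0 these are N3 and N4 against N15 and N16.

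Cxcl3 was at 2.92, 3.74, 2.83 and 2.13 FPM in NRK-49F at pH 7.4 and at 0.443, 0.531, 0.227 and 0.344 FPM at pH 6.0. It was at 0, 0.246, 0.0415 and 0.143 FPM in NRK-52E at pH 7.4 and at 0 counts in the 4 libraries at pH 6.0. It fell in NRK-49F without overlap (log2 fold change -2.97 ± 0.34 SE, edgeR FDR = 2.09e-05) and was too low for a test of acidosis in NRK-52E. At pH 7.4 the lines differed by 4.57 ± 0.48 SE on the log2 scale, or 5.37 without library N2, which held most of the epithelial counts. Cxcl1, Cxcl2 and Cxcl3 have similar sequences and multi-mapping fragments were counted, so their shares are uncertain.

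Cxcl10 and Cxcl11 are interferon-inducible ligands of Cxcr3, which directs activated T cells. In NRK-52E, Cxcl10 was at 0.375, 0.287, 0.332 and 0.524 FPM at pH 7.4 and at 4.89, 3.78, 2.34 and 1.97 FPM at pH 6.0. NRK-49F libraries had 57.3, 57.1, 58.2 and 50.05 FPM at pH 7.4 and 7.22, 9.09, 7.93 and 13.6 FPM at pH 6.0. No pair of groups overlapped, and the lowest level, in control epithelium, rested on 7 to 11 counts per library. Cxcl10 rose 8.33-fold in NRK-52E (log2 fold change 3.06 ± 0.37 SE, edgeR FDR = 3.38e-05) and fell 5.92-fold in NRK-49F (-2.57 ± 0.18, FDR = 4.96e-07). The difference between the effects, -5.61 ± 0.40 SE (edgeR FDR = 7.81e-09), was the largest in absolute size among the members with an estimate. The gap between the lines shrank from 138-fold at pH 7.4 to 2.97-fold at pH 6.0, with NRK-49F higher at both.

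Cxcl11 was at 1.89, 1.87, 1.65 and 2.57 FPM in NRK-49F at pH 7.4 and at 0.443, 0.265, 0.650 and 0.125 FPM at pH 6.0, with 0 counts in NRK-52E. The acidotic libraries were all below the controls (log2 fold change -2.41 ± 0.42 SE, edgeR FDR = 4.26e-04). NRK-49F had at least 15.02-fold more Cxcl11 than NRK-52E at pH 7.4 and at least 2.55-fold more at pH 6.0. Cxcl9, the remaining ligand of this receptor, had 27 counts in NRK-49F at pH 7.4, 19 at pH 6.0 and 0 in NRK-52E. Cxcr3 itself had 33 and 7 counts in NRK-49F and 1 and 0 in NRK-52E.

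Cxcl13 guides B cells through Cxcr5. It was at 4.40, 4.75, 6.92 and 6.76 FPM in NRK-52E at pH 7.4 and at 0.122, 0.0899, 0.369 and 0.423 FPM at pH 6.0. Fibroblasts had 44.8, 50.4, 35.9 and 29.3 FPM at pH 7.4 and 1.37, 2.19, 2.40 and 5.63 FPM at pH 6.0. Acidosis lowered it in both lines without overlap, to between 2 and 9 counts per library in NRK-52E. Its log2 fold change was -4.46 ± 0.40 SE in NRK-52E (edgeR FDR = 3.37e-06) and -3.76 ± 0.34 SE in NRK-49F (edgeR FDR = 3.78e-06), and the difference between these, 0.70 ± 0.60 SE, did not pass the threshold and was 0.40 without library N4 and 0.12 without N16. NRK-49F had 6.61-fold more Cxcl13 at pH 7.4 and 11.3-fold more at pH 6.0. The log2 difference at pH 6.0 was 3.50 ± 0.56 SE, or 5.21 with the second number of the library names as a covariate (number 21 alone).

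Cxcl16 is a transmembrane ligand of Cxcr6 that also takes up oxidized lipoproteins. In NRK-52E it was at 83.8, 69.7, 78.2 and 84.9 FPM at pH 7.4 and at 136, 126, 143 and 141 FPM at pH 6.0. The NRK-49F values were 153, 158, 163 and 128 FPM at pH 7.4 and 95.1, 98.2, 94.4 and 102 FPM at pH 6.0. The libraries of each line fell into separate ranges, higher at pH 6.0 in the epithelial line and lower in the fibroblasts. Cxcl16 rose 1.70-fold in NRK-52E (log2 fold change 0.77 ± 0.09 SE, edgeR FDR = 2.83e-05) and fell 1.56-fold in NRK-49F (-0.64 ± 0.10, FDR = 1.74e-04), a difference of -1.40 ± 0.13 SE (edgeR FDR = 1.33e-07). The order of the lines was thereby exchanged, with NRK-49F 1.80-fold higher at pH 7.4 and 1.39-fold lower at pH 6.0. The former was 0.54 on the log2 scale with library totals in place of 0.85. The latter was not a DEG with the second number of the library names as a covariate (log2 difference -0.41, number 21 alone). Its receptor Cxcr6 had 2 counts, both in library N15.

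Cxcl17 is a ligand of mucosal tissue and Cxcl14 one of epithelia. Cxcl17 was at 3.61, 2.91, 2.78 and 2.95 FPM in NRK-52E at pH 7.4 and at 1.65, 1.21, 0.902 and 2.02 FPM at pH 6.0. NRK-49F had 2.80, 2.58, 1.98 and 1.50 FPM at pH 7.4 and 0.620, 0.398, 1.10 and 0.845 FPM at pH 6.0. The levels at pH 6.0 lay below all controls of the same line, with a log2 fold change of -1.10 ± 0.27 SE in NRK-52E (edgeR FDR = 0.00429) and -1.53 ± 0.34 SE in NRK-49F (edgeR FDR = 0.00250). In NRK-52E, Cxcl17 was no longer a DEG without library N1 (log2 fold change -1.03), N2 (-1.13), N4 (-1.04) or N7 (-0.91). Between the lines Cxcl17 was not a DEG, with log2 differences of -0.56 ± 0.22 SE at pH 7.4 (edgeR FDR = 0.0402), which passed with library totals (-0.86), and -0.89 ± 0.38 SE at pH 6.0 (edgeR FDR = 0.0536). With the second number as a covariate (number 21 alone) they were -0.99 and -0.54, and neither passed. Cxcl14 was at 1.45, 1.19, 0.705 and 0.524 FPM in NRK-52E at pH 7.4 and at 0.917, 0.944, 0.328 and 1.18 FPM at pH 6.0, in overlapping ranges, and at 0 counts in NRK-49F. NRK-52E therefore had at least 6.05-fold more Cxcl14 at pH 7.4 and at least 6.43-fold more at pH 6.0.

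Among the CC ligands, Ccl2 and Ccl7 attract monocytes through Ccr2. In NRK-49F, Ccl2 was at 263, 259.9, 333 and 244 FPM at pH 7.4 and at 60.2, 101, 118 and 149 FPM at pH 6.0. In NRK-52E it was at 0.515, 0.164, 0.746 and 0.333 FPM and at 0.0612, 0.225, 0.164 and 0.188 FPM. All acidotic NRK-49F libraries lay below the controls, and in NRK-52E, where no library held more than 18 counts, the pH groups overlapped and the gene did not enter the test of acidosis. Ccl2 fell 2.60-fold in NRK-49F (log2 fold change -1.38 ± 0.22 SE, edgeR FDR = 2.20e-04). NRK-49F exceeded NRK-52E 582-fold at pH 7.4 and 634-fold at pH 6.0.

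Ccl7 lies beside Ccl2 on chromosome 10 and is also a monocyte ligand. In NRK-52E, Ccl7 was at 1.17, 0.778, 0.8291 and 1.90 FPM at pH 7.4 and at 10.2, 8.90, 11.3 and 12.4 FPM at pH 6.0. Fibroblast values were 60.4, 64.6, 78.2 and 60.1 FPM at pH 7.4 and 40.2, 67.5, 68.98 and 72.4 FPM at pH 6.0. The epithelial groups were apart and the fibroblast groups overlapped. Ccl7 rose 9.08-fold in NRK-52E (log2 fold change 3.18 ± 0.28 SE, edgeR FDR = 3.36e-06), and the NRK-49F log2 fold change was -0.10 ± 0.17 SE (edgeR FDR = 0.648). The difference between the effects was -3.27 ± 0.31 SE (edgeR FDR = 1.77e-07), and the lines differed 53.7-fold at pH 7.4 and 5.87-fold at pH 6.0. Fragments shared by Ccl2, Ccl7 and other members of this cluster would be counted for each.

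Ccl5 attracts T cells and monocytes, and its receptors include Ccr1 and Ccr3. It was at 19.03, 18.4, 26.9 and 20.7 FPM in NRK-49F at pH 7.4 and at 0.664, 1.39, 1.20 and 1.94 FPM at pH 6.0, and at 0 counts in NRK-52E. The acidotic libraries were all below the controls, and the fall was 16.3-fold (log2 fold change -4.02 ± 0.26 SE, edgeR FDR = 3.35e-07). NRK-49F had at least 160.3-fold more Ccl5 than NRK-52E at pH 7.4 and at least 8.93-fold more at pH 6.0. Of these receptors, Ccr3 had 3 counts, and Ccr1 had 2 counts in NRK-49F at pH 7.4 and 42 at pH 6.0, of which 41 were in libraries N15 and N16, and it did not pass the filter of the test over all 4 libraries.

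Ccl27, a ligand known from skin, binds Ccr10. It was at 1.22, 0.778, 0.539 and 1.09 FPM in NRK-52E at pH 7.4 and at 0.183, 0.0899, 0.123 and 0 FPM at pH 6.0. NRK-49F libraries held 1.43, 1.92, 1.51 and 1.15 FPM at pH 7.4 and 0.0443, 0.597, 0.487 and 0.907 FPM at pH 6.0. The pH groups did not overlap in either line. The log2 change was -3.19 ± 0.55 SE in NRK-52E (edgeR FDR = 4.15e-04), and in NRK-49F -1.53 ± 0.50 SE missed the threshold (edgeR FDR = 0.0215), but passed it without library N16 (-2.03). At pH 7.4 the lines differed by 0.65 ± 0.30 SE on the log2 scale, which was not a DEG (edgeR FDR = 0.0665). The value was 0.35 with library totals and 0.33 with the second number as a covariate (number 21 alone). Ccl27 overlaps Il11ra1 in the RefSeq annotation, which also had less RNA at pH 6.0, 155 ± 18.3 and 80.8 ± 14.9 FPM in NRK-52E and 189 ± 14.1 and 72.9 ± 6.92 FPM in NRK-49F. The part of shared fragments was not tested.

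Cx3cl1 is a membrane-bound ligand that is shed by the proteases Adam10 and Adam17 and binds Cx3cr1. In NRK-52E it was at 5.34, 4.47, 3.90 and 4.33 FPM at pH 7.4 and at 0.0612, 0.135, 0.205 and 0.188 FPM at pH 6.0. The fibroblast libraries were at 0, 0.152, 0.0658 and 0.0791 FPM at pH 7.4 and at 0, 0.0663, 0.0975 and 0.125 FPM at pH 6.0, with no more than 4 counts in any. The control epithelial libraries stood above all others. Cx3cl1 fell 28.8-fold in NRK-52E (log2 fold change -4.85 ± 0.31 SE, edgeR FDR = 4.00e-07), and the pH effects of the lines differed by 4.88 ± 0.92 SE (edgeR FDR = 2.60e-04). NRK-49F held 6 counts in all at pH 7.4 and 8 at pH 6.0, too few to enter the test of acidosis there. A fall in NRK-49F could not have been seen, so the difference only restates the fall in NRK-52E. At pH 7.4 NRK-52E had 57.5-fold more Cx3cl1 (edgeR FDR = 5.65e-08). Its receptor Cx3cr1, which the symbol rule does not take, was at 0 counts in all 16 libraries.

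The remaining ligands with counts were low in every group. Ccl20, which attracts cells with Ccr6, had 35 counts in NRK-52E at pH 7.4, 13 at pH 6.0, 14 in NRK-49F at pH 7.4 and 0 at pH 6.0. Ccl9 had 20 counts, all in NRK-49F, and Cxcl2 had 10 of its 11 in NRK-49F at pH 7.4. Ccl19 had its 8 counts in NRK-49F at pH 7.4, while Ccl28 with 9 and Ccl25 with 8 were counted in NRK-52E alone. Cxcl6 and Ccl22 had 6 counts each, Ccl6 had 3, and Ccl4, Ccl11, Ccl17, Ccl24 and Xcl1 had 1 each. None of these passed the filter on low counts in the comparisons of all 4 libraries per group.

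Ccr10 was the only signalling receptor with a mean of at least 1 FPM. It was at 0.890, 1.47, 0.912 and 1.19 FPM in NRK-52E at pH 7.4 and at 0.122, 0.135, 0.287 and 0 FPM at pH 6.0. For NRK-49F the values were 2.63, 2.38, 1.25 and 2.81 FPM at pH 7.4 and 0.797, 0.796, 0.617 and 0.876 FPM at pH 6.0. Levels at pH 6.0 were below all controls of the same line. Ccr10 changed by -2.96 ± 0.53 SE on the log2 scale in NRK-52E (edgeR FDR = 4.97e-04), or -3.66 without library N7, and by -1.58 ± 0.31 SE in NRK-49F (edgeR FDR = 0.00112). At pH 7.4 the lines differed by 0.95 ± 0.29 SE (edgeR FDR = 0.0106). This passed the threshold without library N2 (1.11) or N13 (1.13), in DESeq2 alone, with no filter and with the likelihood-ratio test. At pH 6.0 they differed by 2.43 ± 0.56 SE (edgeR FDR = 0.00184), or 3.11 without library N7. With the second number of the library names as a covariate (number 21 alone) the value of 2.49 did not pass. Ccr10 overlaps Cntnap1 in RefSeq, and Cntnap1 fell in both lines as well, with 11.1 ± 1.85 FPM in control and 0.904 ± 0.291 in acidotic NRK-52E, and 26.7 ± 6.72 in control and 9.50 ± 2.40 in acidotic NRK-49F. The part of shared fragments was not tested.

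Other signalling receptors were counted only sparsely. Cxcr5 had 35 and 10 counts in NRK-52E at pH 7.4 and 6.0 and 3 and 23 in NRK-49F, and it overlaps Bcl9l, which was at 149 ± 14.7 FPM in NRK-52E at pH 7.4. Ccr7 had 24 of its 51 counts in 1 library of NRK-49F at pH 6.0. Ccr9 had 5 counts, Ccr4 had 3, and Cxcr1 and Cxcr2 had 2 each.

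The atypical receptor Ackr3 takes up Cxcl12 and Cxcl11. In NRK-52E it was at 221, 192, 203 and 214 FPM at pH 7.4 and at 41.04, 33.5, 36.97 and 71.8 FPM at pH 6.0. NRK-49F cells had 77.97, 75.2, 71.8 and 57.4 FPM at pH 7.4 and 17.5, 21.2, 25.1 and 36.7 FPM at pH 6.0. All libraries at pH 6.0 were below the controls of their line, and library N8 was the highest of the acidotic epithelium. Ackr3 fell 4.56-fold in NRK-52E (log2 fold change -2.19 ± 0.22 SE, edgeR FDR = 8.80e-06) and 2.83-fold in NRK-49F (-1.50 ± 0.19, FDR = 4.99e-05). The difference between the falls, 0.71 ± 0.31 SE (edgeR FDR = 0.0614), missed the threshold, passed it without library N8 (1.02) and was 0.47 without N16. NRK-52E had 3.11-fold more Ackr3 at pH 7.4, and at pH 6.0 the lines overlapped with a log2 difference of -0.85 ± 0.27 SE (edgeR FDR = 0.0127), which passed with library totals (-0.998), DESeq2 size factors (-0.89), DESeq2 alone, no filter, the likelihood-ratio test or all 16 libraries in 1 fit, and without library N4 (-1.005) or N16 (-1.08). It was -0.54 without library N8 and -0.26 with the second number as a covariate (number 21 alone), and passed in neither.

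Ackr4 takes up Ccl19, Ccl21 and Ccl25. In NRK-52E it was at 44.5, 47.1, 45.1 and 49.98 FPM at pH 7.4 and at 1.04, 1.26, 1.11 and 2.73 FPM at pH 6.0. In the fibroblast libraries it was at 48.9, 49.98, 47.3 and 53.6 FPM at pH 7.4 and 41.8, 44.1, 66.8 and 54.2 FPM at pH 6.0. The acidotic epithelium stood apart, and the other 3 groups overlapped. Ackr4 fell 30.6-fold in NRK-52E (log2 fold change -4.93 ± 0.27 SE, edgeR FDR = 2.07e-07), and the NRK-49F log2 fold change was 0.035 ± 0.13 SE (edgeR FDR = 0.837). The difference between the effects was 4.98 ± 0.29 SE (edgeR FDR = 6.76e-10). The lines differed by 0.015 ± 0.08 SE on the log2 scale at pH 7.4 (edgeR FDR = 0.865), or -0.29 with library totals, where it passed the thresholds. At pH 6.0 they differed 33.8-fold, with a log2 difference of 5.08 ± 0.30 SE, or 5.71 with the second number as a covariate (number 21 alone). Acad11, which overlaps Ackr4 in RefSeq, was at 93.1 ± 6.63 and 69.5 ± 12.1 FPM in NRK-52E and at 51.5 ± 4.09 and 119 ± 17.1 FPM in NRK-49F. Its log2 fold change in NRK-52E was -0.44 ± 0.13 SE, and the part of shared fragments was not tested.

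The library names carry a second number of unstated meaning, 21 or 22 in NRK-52E and 20 or 21 in NRK-49F, and each number holds 2 libraries of each pH. In NRK-52E, the log2 fold changes within number 21 and within number 22 were 3.65 and 2.31 for Cxcl10, 2.41 and 1.48 for Cxcl1, 3.25 and 3.11 for Ccl7, and 0.73 and 0.78 for Cxcl16. They were -5.34 and -4.66 for Ackr4, -2.51 and -1.95 for Ackr3, -5.43 and -4.12 for Cxcl13 and -5.53 and -4.37 for Cx3cl1. In NRK-49F, the log2 fold changes within number 20 and within number 21 were -5.43 and -6.18 for Cxcl12, -2.82 and -2.35 for Cxcl10, -1.69 and -1.42 for Cxcl1, -1.70 and -1.13 for Ccl2 and -4.26 and -3.93 for Ccl5. Larger gaps between number 20 and number 21 were found for Ccl27 (-2.58 and -0.93, not a DEG in either), Cxcl17 (-2.34 and -0.84), Cxcl13 (-4.79 and -3.03) and Ackr3 (-1.99 and -1.08). With 2 libraries against 2, Cxcl17, Ccl27 and Ccr10 were not DEGs within either number of NRK-52E, nor Cxcl1 and Cxcl10 within number 22. Within numbers 21 and 22 the log2 fold changes were -1.23 and -0.99 for Cxcl17, -2.91 and -3.55 for Ccl27, and -3.19 and -2.78 for Ccr10. In NRK-49F, Ccr10 was not a DEG within number 20 (-1.64) or 21 (-1.48), nor were Cxcl11 (-2.48), Cxcl16 (-0.58) and Cxcl17 (-0.84) within number 21.

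Genes around the chemokines were followed in lists. Of the ligands outside the symbol rule, Cklf fell in NRK-52E, from 3.10 ± 0.418 to 0.706 ± 0.378 FPM, and was 1 of 2 list members tested. Mif was at 89.1 ± 14.05 FPM in NRK-52E and 309 ± 61.6 FPM in NRK-49F at pH 7.4 and was not a DEG under acidosis in either line. Of the 7 other receptors, Gpr182, which binds chemokines without signalling, rose in both lines, with 4.37 ± 0.786 FPM in control and 15.1 ± 1.91 in acidotic NRK-52E, and 2.87 ± 0.865 in control and 6.48 ± 0.410 in acidotic NRK-49F. Cd74, the receptor of Mif, and Cmklr1 fell in NRK-49F, Cd74 from 107 ± 15.01 to 18.5 ± 5.70 FPM. Of 7 genes that process or shed chemokines, 1 rose and 4 fell among 6 tested in NRK-52E, beside changes in 56.7% of all genes, and 1 rose and 3 fell among 7 in NRK-49F, beside 37.8%. Anpep and Dpp4, peptidases that trim chemokines, fell in both lines, Anpep with a log2 change of -4.55 ± 0.19 SE in NRK-52E and -1.47 ± 0.22 SE in NRK-49F. Adam10, which sheds Cx3cl1 and Cxcl16, fell in NRK-52E from 249 ± 29.6 FPM to 106 ± 18.7, and Mmp2 rose in both lines.

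Heparan sulfate genes hold ligands at the cell surface, and of 11 such genes 1 rose and 4 fell in NRK-52E (10 tested, beside changes in 56.7% of all genes), and 2 rose and 5 fell in NRK-49F (11 tested, beside 37.8%). The syndecan Sdc1 rose in both lines, whereas Sdc2 fell in NRK-52E (-1.30 ± 0.15 SE, log2) and rose in NRK-49F (0.87 ± 0.09 SE). The polymerase Ext1 fell in NRK-49F (-1.97 ± 0.11 SE, log2). Of 34 genes of receptor signalling, 31 were in the table, and 7 rose and 4 fell among 22 tested in NRK-52E, against 5 and 2 among 25 in NRK-49F. Of all genes, 56.7% and 37.8% changed. The arrestins Arrb1 and Arrb2 and the kinase Grk6, which desensitise receptors, fell in NRK-52E, Arrb1 from 59.9 ± 6.91 to 19.6 ± 5.41 FPM, and the kinase subunit Pik3ca rose in both lines.

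Genes that control chemokine transcription were followed in the same way. Of 15 NF-kB factors and feedback genes, all tested, 5 rose and 3 fell in NRK-52E, beside changes in 56.7% of all genes, and in NRK-49F 1 rose and 6 fell, beside 37.8%. The pH effect differed between the lines for 5 of the 15, beside 36.9% of all genes. The factor Relb was at 14.8 ± 1.32 and 29.3 ± 5.67 FPM in NRK-52E at pH 7.4 and 6.0 and at 34.9 ± 1.14 and 17.3 ± 5.42 FPM in NRK-49F, and the difference between its pH effects was -1.97 ± 0.26 SE on the log2 scale (edgeR FDR = 6.33e-06). The feedback inhibitor Tnfaip3 fell in both lines (-1.72 ± 0.33 SE, log2, in NRK-52E and -0.99 ± 0.18 SE in NRK-49F). Over the whole list the median shift was 0.09 on the log2 scale in NRK-52E and -0.39 in NRK-49F, beside 0.0014 and -0.0029 over all genes.

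Of 10 interferon factors, all tested, 4 rose and 4 fell in NRK-52E, beside changes in 56.7% of all genes, and 0 rose and 5 fell in NRK-49F, beside 37.8%. The list's median log2 shift was 0.14 in the epithelial line and -0.38 in the fibroblasts. Irf7 and Irf1 rose in NRK-52E, Irf7 from 27.01 ± 1.80 to 81.5 ± 9.67 FPM, and Irf7 fell in NRK-49F from 79.1 ± 5.39 to 48.4 ± 4.73 FPM, a difference between the effects of -2.29 ± 0.15 SE on the log2 scale (edgeR FDR = 2.12e-09). Irf9 fell in both lines. A further list held 14 receptors and adaptors for inducers of chemokines, with cytokine receptors and the Toll-like receptors Tlr2, Tlr3 and Tlr4. Of these 14, 4 rose and 4 fell in NRK-52E and 2 rose and 6 fell in NRK-49F. In each line 12 were tested, beside changes in 56.7% and 37.8% of all genes. The interleukin-1 receptor Il1r1 fell in both lines, and the interferon-gamma receptor chain Ifngr1 rose in NRK-52E (0.80 ± 0.09 SE, log2) and fell in NRK-49F (-0.97 ± 0.10 SE).

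Several members are neighbours in the RefSeq annotation of GRCr8. Cxcl11, Cxcl10 and Cxcl9 follow each other, Cxcl2 lies next to Cxcl1, and Ccl2, Ccl7, Ccl11, Ccl12 and Ccl1 form a row, as do Ccl17, Cx3cl1 and Ccl22. In control NRK-52E, Cx3cl1 was at 4.51 ± 0.606 FPM while Ccl17 and Ccl22 had 1 count each over the 4 libraries. Cxcl10 and Cxcl11 overlap Art3, which had at most 8 counts in a library. Cxcl16 overlaps Zmynd15, which moved in the same directions, with 18.5 ± 1.11 FPM in control and 26.8 ± 3.28 in acidotic NRK-52E, and 10.3 ± 0.458 in control and 6.81 ± 0.675 in acidotic NRK-49F, and the part of shared fragments was not tested.

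Promoter sequences from RefSeq (GRCr8) matched 39 of the 52 members and 12 of the 16 with at least 1 FPM. A form of the kappa B motif, GGGA and TTCC with 2 free bases between them, occurred on either strand in the 250 bases before the start of 6 of the 39 members, or 15.4%, and in 1.08% of all 33469 promoters. These 6 were Cxcl1, Cxcl6, Cxcl10, Cxcl11, Ccl7 and Ccr3. The looser form with GGG, 3 free bases and TTCC, which includes the former, occurred in 25.6% of members and 4.53% of all, and GGAAANTCC, which overlaps both, in 12.8% and 1.08%. Shares were 28.2% and 12.9% for TATAAA, 15.4% and 6.34% for TGANTCA, 10.3% and 7.67% for TTCNNNGAA and 7.69% and 10.1% for TGACNNNGC. For GAAA repeated after 2 free bases they were 5.13% and 3.41%, for TGATGNAA 5.13% and 3.40%, and TTGCGCAA occurred in 0 members and 0.14% of all promoters. A match says only that the letters are present. The windows of the 4 ligands that rose in NRK-52E are shown from 5′ to 3′ with matches to the first kappa B form on either strand in capitals, where overlapping matches form 1 stretch.
Cxcl1 (GRCr8 chr14:17479322-17479571, minus strand): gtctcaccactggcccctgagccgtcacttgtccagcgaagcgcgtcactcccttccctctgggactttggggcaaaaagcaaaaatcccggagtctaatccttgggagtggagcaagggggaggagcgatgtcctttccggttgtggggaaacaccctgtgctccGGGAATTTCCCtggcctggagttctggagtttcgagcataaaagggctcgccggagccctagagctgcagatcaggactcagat
Cxcl10 (GRCr8 chr14:15988816-15989065, plus strand): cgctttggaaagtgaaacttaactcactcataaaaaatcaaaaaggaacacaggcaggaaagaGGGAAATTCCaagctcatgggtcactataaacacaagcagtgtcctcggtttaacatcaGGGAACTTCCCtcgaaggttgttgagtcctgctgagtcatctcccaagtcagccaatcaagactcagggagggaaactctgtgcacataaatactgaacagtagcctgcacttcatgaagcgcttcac
Ccl7 (GRCr8 chr10:67513845-67514094, plus strand): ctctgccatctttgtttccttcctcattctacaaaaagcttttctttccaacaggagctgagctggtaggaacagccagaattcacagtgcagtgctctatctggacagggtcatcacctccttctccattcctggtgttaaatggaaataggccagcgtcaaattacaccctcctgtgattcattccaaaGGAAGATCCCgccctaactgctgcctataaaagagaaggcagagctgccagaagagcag
Cxcl16 (GRCr8 chr10:55669951-55670200, minus strand): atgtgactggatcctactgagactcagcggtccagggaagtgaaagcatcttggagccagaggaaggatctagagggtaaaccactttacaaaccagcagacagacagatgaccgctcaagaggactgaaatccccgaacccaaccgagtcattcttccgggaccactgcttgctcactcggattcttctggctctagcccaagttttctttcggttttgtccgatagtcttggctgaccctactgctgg
Cxcl10 held 2 stretches, Cxcl1 and Ccl7 held 1 each, and Cxcl16 held 0. Of these 4, Cxcl1, Cxcl10 and Cxcl16 fell in NRK-49F and Ccl7 was not a DEG there.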

How the data were processed

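The deposited counts are whole fragment counts per Ensembl gene. According to the authors' processing notes, fragments were mapped to rn6 with HISAT2 2.1.0, while the paper's methods name tophat2, and counted with featureCounts, multi-mapping fragments included and no strand option named. Fragments from stretches where genes overlap, and those of similar paralogs, can therefore not be told apart. The options that the paper lists for counting name none that assigns a fragment to more than 1 overlapping gene. Overlaps were taken here from RefSeq on GRCr8 and not from the rn6 annotation used for counting. Every fit in edgeR 4.0.16 (quasi-likelihood, TMM, filterByExpr) and DESeq2 1.42.0 under R 4.3.3 started from the table of 32623 genes. Between 13339 and 14679 genes were tested per comparison, with p-values adjusted over all genes tested. FPM are counts over library size times TMM factor. An SE is the absolute log2 fold change over √F from edgeR. Members and lists were chosen with earlier results of these data known, and the sequence strings and overlapping genes were picked after values were seen. No gene lengths were used, so a higher FPM of 1 gene than of another does not mean more transcripts. Xcl2, Adrbk1, Adrbk2, Dock2, Col1a2, Pecam1, Ccr2 and Ackr1 were not analysed here, and some genes of the lists are not reported here.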

Additional observations from a re-analysis of the deposited data

Results flagged for a closer look

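Within groups of 4 libraries, a gap test that passes by chance in about 1 in 20 groups was applied to 49 groups, where 2.45 would be expected, and 3 libraries stood apart. Ackr4 in NRK-52E at pH 6.0 was highest in library N8, at 2.73 FPM. Cxcl10 in NRK-49F at pH 7.4 was lowest in library N14, at 50.05 FPM. Ccl7 in NRK-49F at pH 6.0 was lowest in library N11, at 40.2 FPM. The pH effect in NRK-49F minus that in NRK-52E, on the log2 scale, was 4.98 for Ackr4, -5.61 for Cxcl10, -3.68 for Cxcl1, -1.40 for Cxcl16, -3.27 for Ccl7 and 4.88 for Cx3cl1. The value of Cx3cl1 only restates its fall in NRK-52E, since NRK-49F was too low for a test of acidosis.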

How the results depend on the processing

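Members differing between pH values in NRK-52E numbered 8 within second number 21, beside 5244 of 13903 genes, and 6 within 22, beside 2820 of 13952. The fit of all libraries gave 11 members, beside 7793 of 13735 genes. With any 1 library left out, 10 to 11 members differed. In NRK-49F such members numbered 11 within number 20, beside 4680 of 13379 genes, and 8 within number 21, beside 1980 of 13861. All libraries gave 12, beside 5039 of 13339 genes, and 12 to 13 were found with 1 library left out. Leaving out 1 library gave 13 to 14 between the lines at pH 7.4, 9 to 11 at pH 6.0 and 6 to 7 for the interaction. With all 16 libraries in 1 fit, 12 members differed between pH values in NRK-52E, beside 8316 of 14679 genes. DESeq2 alone gave 8 members for the interaction, beside 6257 of 16513 genes. These 8 include Cxcl12, for which the difference could not be estimated because NRK-52E had no counts. Between the lines at pH 7.4, 18 members differed with DESeq2 alone and 18 with no filter, beside 10493 of 16740 and 10024 of 20768 genes. The filter of 1 CPM in 4 libraries gave 12, beside 9016 of 13318 genes. At pH 6.0 the lines differed in 15 members with DESeq2 alone and 15 with no filter, beside 9512 of 17313 and 8916 of 20495 genes. All 16 libraries in 1 fit gave 14, beside 9276 of 14679 genes. The filter of 1 CPM in 4 libraries gave 7, beside 7826 of 12935 genes. With the second number as covariate 7 differed (7 higher, 0 lower), beside 6660 of 13796 genes.

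Signs turned only for values that were not called with TMM, and 1 of the turned values, Ackr4 at pH 7.4 with library totals, was itself called. Cxcl14 in NRK-52E was 0.25 within number 22, and from -0.46 (without N8) to 0.065 (without N7) with 1 library left out, with 0.012 without N1. Ackr4 in NRK-49F was -0.20 within number 20, and from -0.098 (without N15) to 0.13 (without N11). Ccl7 in NRK-49F was 0.013 within number 21, and from -0.17 (without N16) to 0.066 (without N11), with 0.0029 without N13. Ackr4 between the lines at pH 7.4 was -0.29 with library totals, and from -0.015 (without N14) to 0.058 (without N6), with -0.0060 without N1. Cxcl1 between the lines at pH 6.0 was -0.25 with the second number as covariate. The Ccl2 interaction ran from -0.36 (without N5) to 0.33 (without N2), and was also negative without N1, N3, N14, N15 or N16.

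No paired analysis was possible because each library number occurs in 1 group only. The second number, whose meaning is unknown, is shared by the pH groups of a line. With it as covariate 11 members differed in NRK-52E, beside 7551 of 13735 genes, and 12 in NRK-49F, beside 5211 of 13339. The interaction then gave 6, beside 5268 of 14679 genes. Between the lines 13 members differed at pH 7.4 and 7 at pH 6.0 with this covariate, beside 7417 of 14026 and 6660 of 13796 genes. Only number 21 occurs in both lines, so all differences between the lines with this covariate rest on 2 libraries against 2.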
